A study of Mus musculus with 48 samples.

Results

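The genes described here encode 9 integrin chains (*Itgam*, *Itgax*, *Itgad*, *Itgal*, *Itgb2*, *Itga4*, *Itgb1*, *Itgb7*, *Itga6*) and the integrin ligand *Vcam1*. They were chosen by name, and all 10 were found among the 54735 genes listed for each library. The libraries hold RNA from splenic monocytes (Ly6Glo CD11bhi F4/80-), pre-RPMs (Ly6Glo CD11bhi F4/80lo), and red pulp macrophages (RPMs, Ly6Glo CD11blo/- F4/80hi), sorted from WT and Il1rl1-/- mice. All mice were male, Balb/c, and 10 weeks old, and carried no further allele or treatment according to the labels. There were 6 groups of 4 mice and 24 libraries, each from a single mouse. The other 24 samples of the series, on chromatin accessibility, were not analysed here. Il1rl1 encodes the IL-33 receptor, and the comparisons ask how cells differ along the path from monocyte to RPM and with that receptor's genotype.

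An integrin is a pair of 1 alpha and 1 beta chain in the cell membrane that binds other cells or matrix. The beta2 chain, encoded by *Itgb2*, pairs with the alpha chains CD11a (*Itgal*), CD11b (*Itgam*), CD11c (*Itgax*), and CD11d (*Itgad*), which bind ICAMs, complement fragments, and other ligands on leukocytes. The alpha4 chain (*Itga4*) pairs with beta1 (*Itgb1*) or beta7 (*Itgb7*), and both pairs bind VCAM-1, an immunoglobulin-like adhesion molecule of activated endothelium that is also a surface marker of RPMs. The alpha6 chain (*Itga6*) pairs with beta1 to bind laminin. CD11b was itself used to sort the cells, so the difference in *Itgam* between RPMs and the other cells is a property of the gate and is given as a description.

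Depth was similar across libraries, with total counts on genes from 3562367 to 6559454 (median 4728764), of which the single gene Gm42418 took 24.4% to 38.8%. Levels are given as CPM (counts scaled to the library total) with TMM scaling over the 24 libraries, and a count of 3, the limit below which a gene is not distinguished from 0, equals 0.457 to 0.842 CPM by total counts. This limit covers counting error only. Over monocytes and pre-RPMs, counts of *Il1rl1* were higher under the Il1rl1-/- label than in WT, from 42 to 76 against 12 to 28. This direction is opposite to a loss of the transcript. The log2 fold change was 2.13 in monocytes and 1.52 in pre-RPMs (adjusted p = 0.00881 and 0.00107 by edgeR). In RPMs, counts were 1 to 7 under the Il1rl1-/- label and 5 to 13 in WT, too low to be tested. Whether the counts come from an intact or an altered transcript was not tested. Libraries are therefore named by their label, and every direction between genotypes is one between labels. The 10 fixed RPM markers other than *Vcam1* summed to 5688 to 7900 CPM in RPM libraries and to 42.1 to 333 CPM in the others, so the sorted RPMs carried the genes that define them. In bulk RNA, fewer cells of a type and less RNA per cell cannot be told apart.

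On GRCm38, *Itgam* (ENSMUSG00000030786) lies at chr7:128062640-128118491, *Itgax* (ENSMUSG00000030789) at chr7:128129547-128150657, and *Itgad* (ENSMUSG00000070369) at chr7:128154376-128223816, all on the plus strand. *Itgam* ends 11055 bases before *Itgax* starts, and *Itgax* ends 3718 bases before *Itgad* starts. *Itgal* (ENSMUSG00000030830) lies on the same chromosome at chr7:127296260-127335138, plus strand, ending 727501 bases before *Itgam*. Among the other members, *Itgb2* (ENSMUSG00000000290) is at chr10:77530252-77565708 (+), *Itga4* (ENSMUSG00000027009) at chr2:79255426-79333123 (+), *Itga6* (ENSMUSG00000027111) at chr2:71745616-71858416 (+), *Itgb1* (ENSMUSG00000025809) at chr8:128685654-128733200 (+), *Itgb7* (ENSMUSG00000001281) at chr15:102215995-102231944 (-), and *Vcam1* (ENSMUSG00000027962) at chr3:116109949-116129688 (-). *Itgam* shares 3450 of its 5024 exonic bases with the gene model Gm49368 on the same strand. The counting did not assign read pairs that fall on both genes, so counts of *Itgam* rest on 1574 bases, and Gm49368 had 0 to 9 counts. *Itgad* shares 330 of 4510 exonic bases with Gm17831 in the same way. Levels per kb below use the bases that could be counted.

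The RefSeq table gave a promoter window on GRCm38.p6, from 250 bases before to 50 after the start, for 5 of 10 members (*Itgam*, *Itgax*, *Itga4*, *Itgb1*, *Itgb7*). Entries were missing for *Itgad*, *Itgal*, *Itgb2*, *Itga6*, and *Vcam1*. Windows are printed for the neighbours *Itgam* and *Itgax*, whose levels differ between the cell types in unlike ways, and for *Itgb7*, which falls with *Itgam* in RPMs. Capitals mark the motifs searched on both strands, which were GAGGAAGT, of the type bound by PU.1, AGATAA, of the type bound by the erythroid and hematopoietic GATA factors, and GGAATTTCC, of the type bound by NF-kB. The windows are chr7:128062390-128062689 (+), chr7:128129300-128129599 (+), and chr15:102231886-102232185 (-), in that order.
Itgam: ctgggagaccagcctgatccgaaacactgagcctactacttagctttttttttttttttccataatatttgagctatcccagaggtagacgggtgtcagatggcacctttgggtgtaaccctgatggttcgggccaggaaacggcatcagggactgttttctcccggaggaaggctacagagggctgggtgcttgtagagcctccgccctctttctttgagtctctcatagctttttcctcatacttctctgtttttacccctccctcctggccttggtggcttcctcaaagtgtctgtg
Itgax: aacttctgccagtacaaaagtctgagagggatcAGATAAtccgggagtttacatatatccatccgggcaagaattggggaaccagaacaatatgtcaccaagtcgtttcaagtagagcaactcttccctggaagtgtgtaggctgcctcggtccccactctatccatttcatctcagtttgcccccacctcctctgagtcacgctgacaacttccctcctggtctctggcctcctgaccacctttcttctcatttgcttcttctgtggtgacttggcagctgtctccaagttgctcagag
Itgb7: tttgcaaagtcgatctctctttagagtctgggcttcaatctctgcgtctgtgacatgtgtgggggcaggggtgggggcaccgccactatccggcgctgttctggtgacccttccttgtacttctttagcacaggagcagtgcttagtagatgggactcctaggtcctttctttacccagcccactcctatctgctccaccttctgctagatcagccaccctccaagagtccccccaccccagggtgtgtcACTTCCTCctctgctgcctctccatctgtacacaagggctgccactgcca
The *Itgax* window holds AGATAA at base 34, and the *Itgb7* window holds GAGGAAGT on the opposite strand at base 251. No match lies in the windows of *Itgam*, *Itga4*, and *Itgb1*, and the matches found do not overlap. Over 32851 windows of the same length, 11.2% hold AGATAA, 3.20% hold GAGGAAGT, and 0.317% hold GGAATTTCC. GC content was 50.3% for *Itgam*, 50% for *Itgax*, 56.3% for *Itgb7*, 64.3% for *Itga4*, and 67.3% for *Itgb1*.

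RPMs expressed a different set of alpha chains from monocytes and pre-RPMs. *Itgad*, which encodes CD11d, rose to become the leading beta2-family alpha chain, whereas *Itgal*, which encodes the CD11a chain of LFA-1, and *Itgam* fell to a small remainder. *Vcam1* rose with *Itgad*, and both genes for the receptor pair of VCAM-1 through beta7, *Itga4* and *Itgb7*, fell. The common chains *Itgb2* and *Itgb1* stayed within the fold threshold, although both were lower in RPMs than in monocytes. The plot of the members by library shows these levels.

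**Figure D1:**
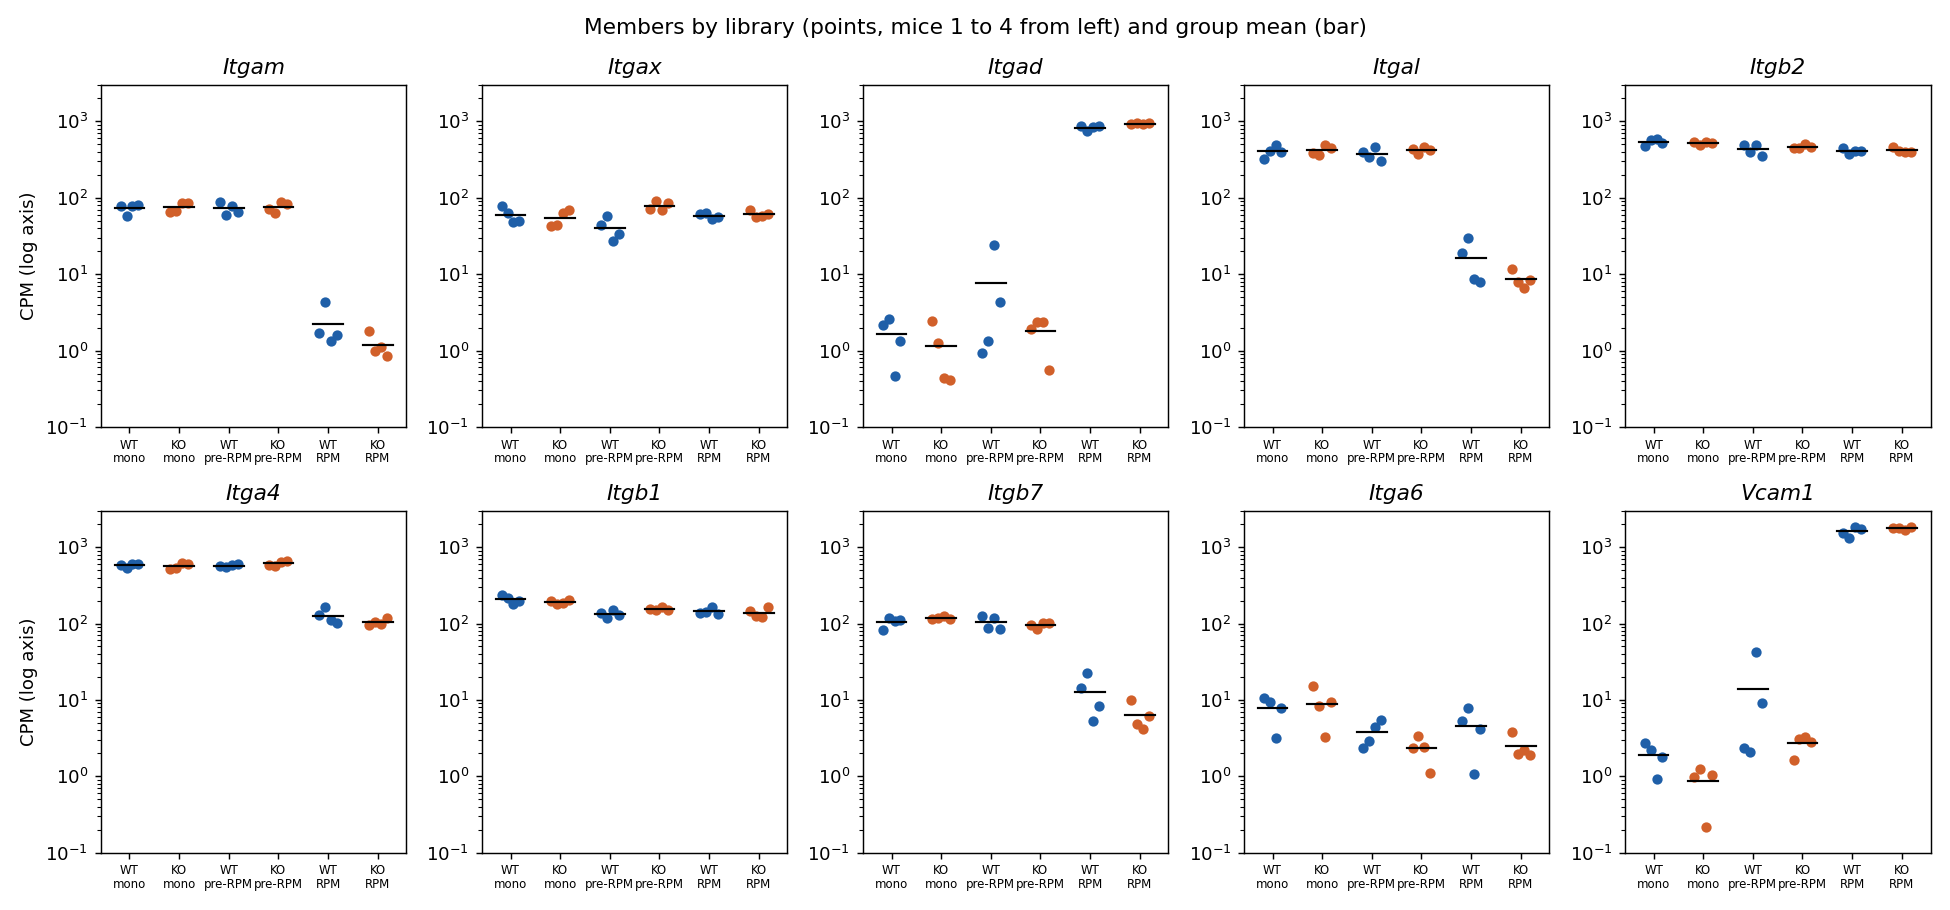
CPM on a log axis for the 10 genes in each of the 24 libraries, WT in blue and libraries labelled Il1rl1-/- (KO) in orange, with the mean of 4 mice as a bar. *Itgad* and *Vcam1* lie between 739 and 1858 CPM in RPMs and at or below 41.9 CPM elsewhere, and *Itgam*, *Itgal*, *Itga4*, and *Itgb7* are lower in RPMs than in both other cell types.

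In WT mice 1, 2, 3, and 4, *Itgad* was at 2.14, 2.60, 0.459, and 1.35 CPM in monocytes, at 0.930, 1.31, 24.3, and 4.29 CPM in pre-RPMs, and at 857, 739, 837, and 874 CPM in RPMs. In the mice labelled Il1rl1-/-, it was at 2.46, 1.26, 0.431, and 0.412 CPM in monocytes, at 1.89, 2.37, 2.38, and 0.559 CPM in pre-RPMs, and at 912, 945, 913, and 960 CPM in RPMs. RPM libraries did not overlap any other library, and the pre-RPM library of WT mouse 3 stood above the other pre-RPM libraries. The log2 fold change of *Itgad* from pre-RPMs to RPMs was 6.70 (SE 0.67, adjusted p = 1.13e-06 by edgeR) in WT and 8.98 (SE 0.22, adjusted p = 9.84e-14) under the Il1rl1-/- label. Without WT pre-RPM mouse 3, the WT value was 8.49. From monocytes to RPMs, it was 8.91 (SE 0.32, adjusted p = 7.92e-09) in WT and 9.70 (SE 0.33, adjusted p = 6.01e-10) under the Il1rl1-/- label.

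*Vcam1* followed the same order. In WT, it was at 2.75, 2.20, 0.918, and 1.80 CPM in monocytes, at 2.33, 2.10, 41.9, and 9.05 CPM in pre-RPMs, and at 1542, 1307, 1858, and 1731 CPM in RPMs. Under the Il1rl1-/- label, it was at 0.984, 1.26, 0.215, and 1.03 CPM in monocytes, at 1.66, 3.05, 3.27, and 2.80 CPM in pre-RPMs, and at 1799, 1793, 1658, and 1855 CPM in RPMs. Again the RPM libraries stood apart, and WT pre-RPM mouse 3 was the highest of the rest. From pre-RPMs to RPMs, the log2 fold change was 6.82 (SE 0.73, adjusted p = 2.41e-06 by edgeR) in WT, 8.42 without WT pre-RPM mouse 3, and 9.29 (SE 0.17, adjusted p = 9.58e-15) under the Il1rl1-/- label. From monocytes to RPMs, it was 9.64 (SE 0.30) in WT and 10.95 (SE 0.27) under the Il1rl1-/- label, with edgeR's adjusted p of 3.42e-09 and 8.33e-11.

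*Itgal* was at 301 to 485 CPM in WT monocytes and pre-RPMs and at 19.1, 29.9, 8.55, and 7.85 CPM in WT RPMs. Under the Il1rl1-/- label, it was at 365 to 487 CPM in monocytes and pre-RPMs and at 11.7, 8.01, 6.58, and 8.31 CPM in RPMs. RPM libraries were the lowest in both genotypes, without overlap. From pre-RPMs to RPMs it fell by 4.54 on the log2 scale (SE 0.34, adjusted p = 7.71e-08 by edgeR) in WT and by 5.67 (SE 0.16, adjusted p = 2.29e-13) under the Il1rl1-/- label. *Itgam*, the gene of the sort marker, was at 59.4 to 88.2 CPM in WT pre-RPMs and at 1.69, 4.27, 1.34, and 1.62 CPM in WT RPMs, which the gate sets. Under the Il1rl1-/- label, it was at 63.6 to 87.8 CPM in pre-RPMs and at 1.79, 0.981, 1.10, and 0.852 CPM in RPMs. The log2 fold change of *Itgam* was −5.01 in WT and −6.06 under the Il1rl1-/- label.

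The genes of the 2 alpha4 pairs that bind VCAM-1 differed among themselves, and this paragraph is limited to those pairs. The other members and integrin chains were not sorted by whether they bind VCAM-1. *Itga4* was at 548 to 604 CPM in WT pre-RPMs and at 130, 164, 110, and 103 CPM in WT RPMs, so RPMs kept a lower but measurable level. Its log2 fold change was −2.22 (SE 0.15, adjusted p = 2.99e-08 by edgeR) in WT and −2.62 (SE 0.11, adjusted p = 1.47e-11) under the Il1rl1-/- label. *Itgb7*, the beta chain of the gut-homing pair with alpha4, was at 84.5 to 127 CPM in WT pre-RPMs and at 14.2, 22.8, 5.34, and 8.31 CPM in WT RPMs. Its log2 fold change was −3.05 (SE 0.30, adjusted p = 9.97e-07 by edgeR) in WT and −4.00 (SE 0.18, adjusted p = 4.53e-11) under the Il1rl1-/- label. *Itgb1* was at 120 to 149 CPM in WT pre-RPMs and at 134 to 165 CPM in WT RPMs, and these ranges overlap. Its log2 fold change was 0.07 (95% interval −0.18 to 0.32) in WT and −0.21 (95% interval −0.44 to 0.02) under the Il1rl1-/- label.

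*Itgb2* was at 354 to 490 CPM in WT pre-RPMs and at 379 to 451 CPM in WT RPMs. The ranges overlap, and the log2 fold change was −0.12 (95% interval −0.41 to 0.18) in WT and −0.20 (95% interval −0.40 to −0.00) under the Il1rl1-/- label, the latter with adjusted p = 0.0781 by edgeR. *Itga6* was at 1.07 to 10.5 CPM over the WT libraries, and its WT log2 fold change from pre-RPMs to RPMs was 0.28 (95% interval −0.64 to 1.2), beside 0.01 (95% interval −0.78 to 0.80) under the Il1rl1-/- label.

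From monocytes to RPMs, the common beta chains were lower without overlap of the groups in either genotype. *Itgb1* was at 178 to 236 CPM in WT monocytes, and its log2 fold change was −0.54 (SE 0.13, adjusted p = 0.00551 by edgeR) in WT and −0.46 (SE 0.12, adjusted p = 0.00787) under the Il1rl1-/- label. *Itgb2* was at 475 to 597 CPM in WT monocytes, with values of −0.41 (SE 0.13, adjusted p = 0.0236 by edgeR) and −0.31 (SE 0.11, adjusted p = 0.0384). These values of *Itgb1* passed the p but not the fold threshold, and those of *Itgb2* passed neither. The members that fell in this comparison had log2 fold changes in WT and under the Il1rl1-/- label of −4.63 and −5.61 for *Itgal*, −2.21 and −2.47 for *Itga4*, −3.04 and −4.22 for *Itgb7*, and, by the gate, −5.00 and −5.99 for *Itgam*. *Itgax* was at −0.06 (95% interval −0.42 to 0.29) and 0.16 (95% interval −0.20 to 0.51), and *Itga6* in WT at −0.74 (95% interval −1.75 to 0.26).

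Over the step from pre-RPMs to RPMs, 6 of 10 members tested were called in WT, 2 higher and 4 lower, where 24.7% of all genes tested were called (adjusted p below 0.01 with a log2 fold change beyond 1 in size). DESeq2 called 5 there and gave no adjusted p for *Itgad*. Under the Il1rl1-/- label, 6 of 10 were called, with 26% of all genes, and DESeq2 also called 6. From monocytes to RPMs, 6 of 10 were called in WT and 7 of 10 under the Il1rl1-/- label, with 23.9% and 25.9% of all genes. The seventh was *Itga6*, at −1.85 (SE 0.42, adjusted p = 0.00304 by edgeR), which was not called when the RPM library of mouse 2, 3, or 4 was left out (adjusted p = 0.0111, 0.0112, and 0.0125). The median log2 fold change of the members was −0.02 in WT and −0.32 under the Il1rl1-/- label from pre-RPMs to RPMs, beside −0.00 and −0.00 over all genes tested. Since *Itgam* was set by the gate, 1 of the 4 falls is no finding.

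**Figure D2:**
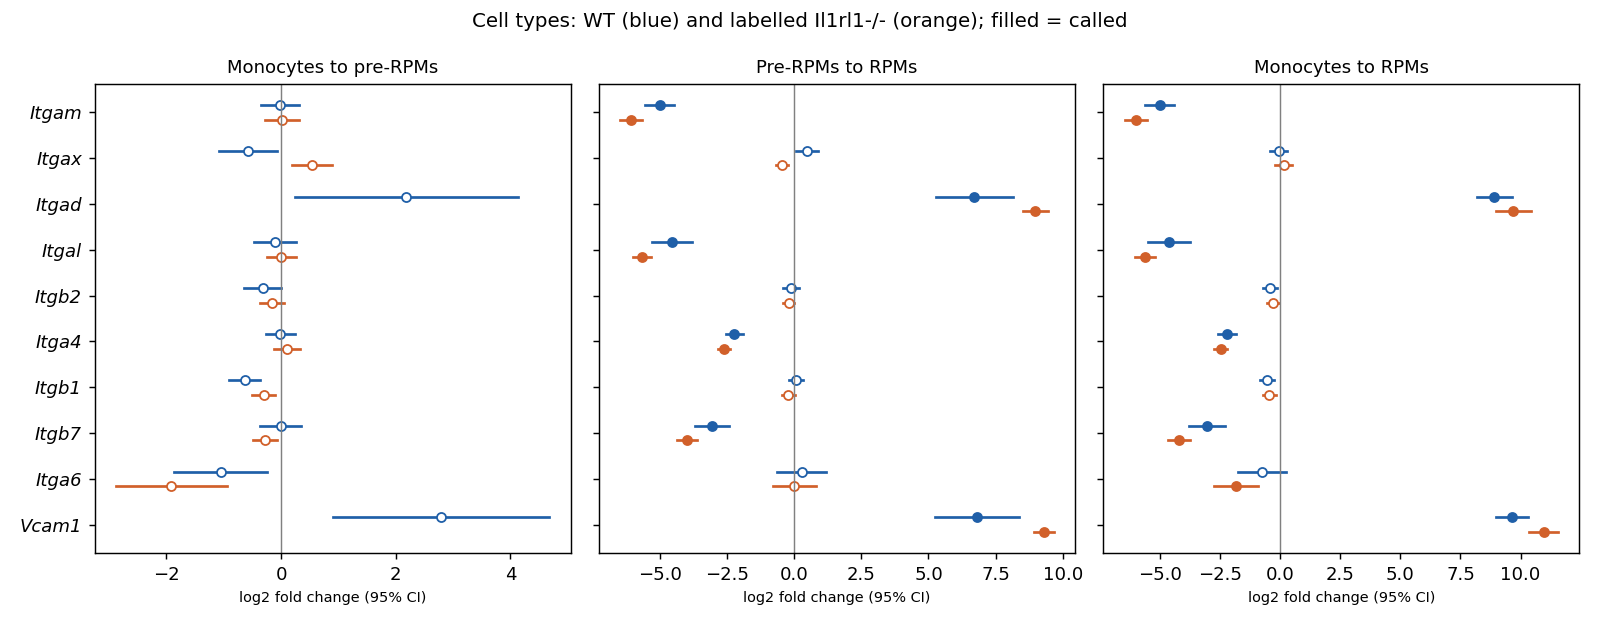
log2 fold changes between cell types with 95% intervals, WT in blue and libraries labelled Il1rl1-/- in orange, where filled points passed both thresholds. From pre-RPMs to RPMs, *Itgad* and *Vcam1* lie at 6.70 to 9.29 and *Itgam*, *Itgal*, *Itga4*, and *Itgb7* at −6.06 to −2.22, and each panel has its own scale.

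Markers of other cells differed between the RPM libraries. The summed CPM of 8 NK cell markers was 31.5, 45.0, 11.5, and 16.6 in WT RPMs of mice 1 to 4, and that of 8 B cell markers was 90.6, 129, 37.9, and 57.0. *Itgal*, *Itgam*, *Itga4*, and *Itgb7* were each highest in WT RPM mouse 2, which also had the highest of both sums. In WT pre-RPMs and monocytes, NK cell markers summed to 68.6 to 142 and 575 to 1896 CPM. The 10 neutrophil markers summed to 759 to 2462 CPM in WT monocytes, 171 to 245 CPM in WT pre-RPMs, and 11.1 to 20.2 CPM in WT RPMs. Under the Il1rl1-/- label, these sums were 1006 to 2049, 156 to 394, and 2.19 to 6.05 CPM. Erythroid markers summed to 896 to 24140 CPM in RPMs and were at most 639 CPM in the other libraries. The 10 markers of stroma and endothelium summed to 295 to 365 CPM in RPMs and to 14.7 to 33.2 CPM in the other libraries. Of these, Ccl19 and Madcam1 had no counts in WT RPMs. The part of these markers in the levels of the members was not tested.

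Per kb of countable exon, the mix of alpha chains available to *Itgb2* differed between RPMs and the other cells. In WT monocytes, *Itgal* held 50.8% ± 6.07, *Itgam* 38.5% ± 4.71, *Itgax* 10.4% ± 3.03, and *Itgad* 0.334% ± 0.205 of their summed level (mean ± SD, n = 4). In WT pre-RPMs, the shares were 50.2% ± 2.57, 40.7% ± 3.78, 7.62% ± 3.04, and 1.5% ± 2.01 in the same order. In WT RPMs, *Itgad* held 92.5% ± 1.95, *Itgax* 5.67% ± 0.687, *Itgal* 1.19% ± 0.823, and *Itgam* 0.680% ± 0.466. Under the Il1rl1-/- label, *Itgad* held 93.8% ± 0.743 in RPMs and 0.337% ± 0.168 in pre-RPMs. With full exonic lengths, *Itgam* held 16.5% and *Itgal* 68.9% in WT monocytes, so *Itgal* led under both lengths and the distance to *Itgam* depended on the length used. The summed alpha level was 0.687 ± 0.0555 of that of *Itgb2* in WT monocytes, 0.801 ± 0.0210 in WT pre-RPMs, and 1.59 ± 0.0743 in WT RPMs (mean ± SD, n = 4).

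**Figure D3:**
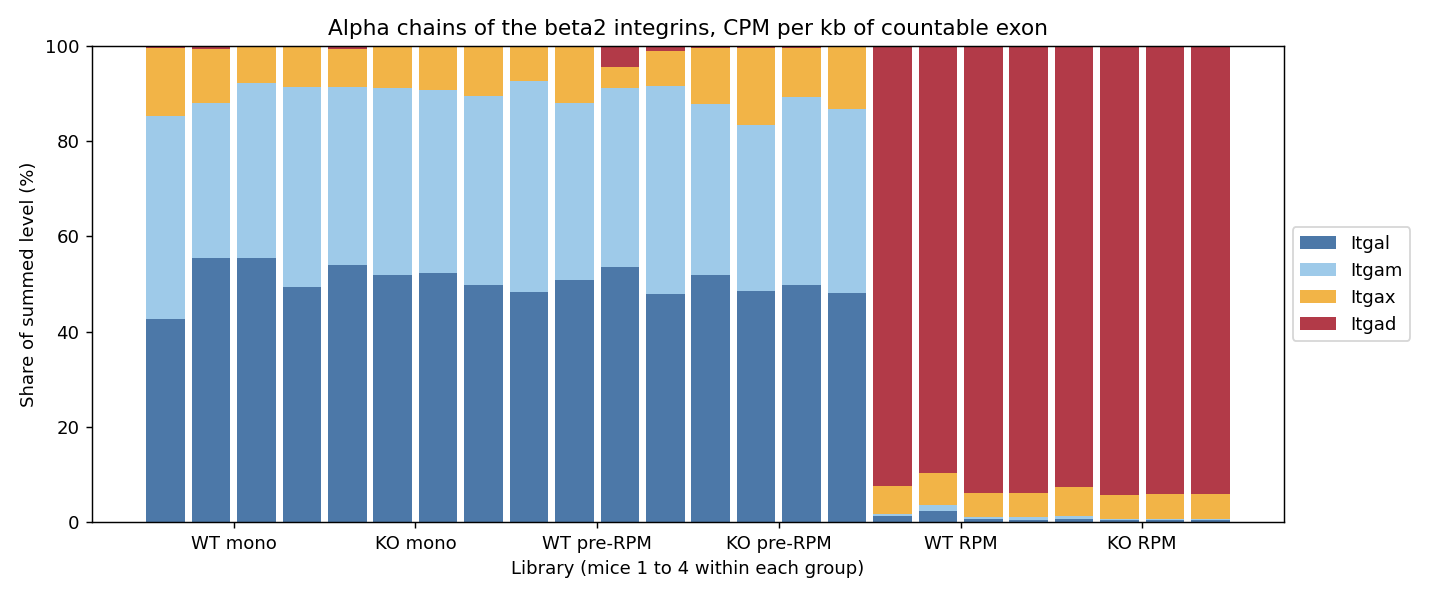
Share of each alpha chain in the summed level per kb of countable exon, one bar per library, for monocytes, pre-RPMs, and RPMs of WT and libraries labelled Il1rl1-/- (KO). *Itgad* makes up 89.7% to 94.3% of each bar in RPMs and at most 4.46% in the other libraries.

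The order of levels per kb was led by *Itgb2* in monocytes and pre-RPMs, at 177 ± 17.5 and 142 ± 21.9 CPM per kb in WT (mean ± SD, n = 4), and its libraries did not overlap those of the next gene, *Itgal*. *Itgal*, *Itgb1*, *Itgam*, *Itga4*, and *Itgb7* followed in WT monocytes from 61.6 to 37.7 CPM per kb, and each overlapped its neighbour in this order. In WT RPMs, *Itgad* (198 ± 14.4), *Vcam1* (181 ± 27.0), and *Itgb2* (135 ± 9.80) led, and neighbours among these overlapped. *Itgb1* was next at 35.3 ± 3.47 CPM per kb, without overlap with *Itgb2* above or *Itgax* below. In RPMs labelled Il1rl1-/-, *Itgad* (223 ± 5.67), *Vcam1* (200.3 ± 9.44), and *Itgb2* (137 ± 10.1) did not overlap each other.

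Between monocytes and pre-RPMs, 0 of 10 members were called in WT and 0 of 8 tested under the Il1rl1-/- label, beside 3.57% and 4.85% of all genes. At an unadjusted p under 0.05 there were 6 and 4, beside 31.9% and 30.6% of all genes tested, and DESeq2 called 0 and 1. *Itgb1* was at 178 to 236 CPM in WT monocytes and at 120 to 149 CPM in WT pre-RPMs. These did not overlap, and its log2 fold change of −0.64 (SE 0.13, adjusted p = 0.00827 by edgeR) passed the p but not the fold threshold. *Itgb1* was at −0.30 (SE 0.09, adjusted p = 0.0411 by edgeR) under the Il1rl1-/- label. *Itgb2* was at −0.32 in WT and −0.16 under the Il1rl1-/- label, and *Itgb7* at −0.01 and −0.28, while *Itgam*, *Itgal*, and *Itga4* lay between −0.11 and 0.10 in both. *Itga6* was at 15.01, 8.20, 3.23, and 9.26 CPM in monocytes labelled Il1rl1-/- and at 2.37, 3.39, 2.38, and 1.12 CPM in pre-RPMs, which overlap in part. Its log2 fold change was −1.91 (SE 0.44, adjusted p = 0.0126 by edgeR), and with the mouse number as a block, which pairs libraries of the same mouse, it was called (adjusted p = 0.00304). In WT, it was −1.05 (SE 0.37, adjusted p = 0.0769 by edgeR). NK cell markers summed to 504 to 1569 CPM in monocytes labelled Il1rl1-/- and to 14.7 to 50.7 CPM in pre-RPMs, and their part in *Itga6* was not tested.

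*Vcam1* and *Itgad* in WT pre-RPMs turned on mouse 3. Their log2 fold changes from monocytes were 2.79 (SE 0.86, adjusted p = 0.0504 by edgeR) and 2.18 (SE 0.89, adjusted p = 0.116), and without that library they were 1.19 and 0.39. The same library had the highest RPM marker sum of the 4 WT pre-RPM libraries, 333 CPM against 165 to 220 CPM, and the highest erythroid marker sum, 639 CPM against 11.3 to 94.3 CPM. Mouse 4 was second in all 4 of these values. Both genes were left out of the comparison under the Il1rl1-/- label because of low counts, where *Vcam1* had 1 to 6 counts in monocytes and 7 to 18 in pre-RPMs.

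**Figure D4:**
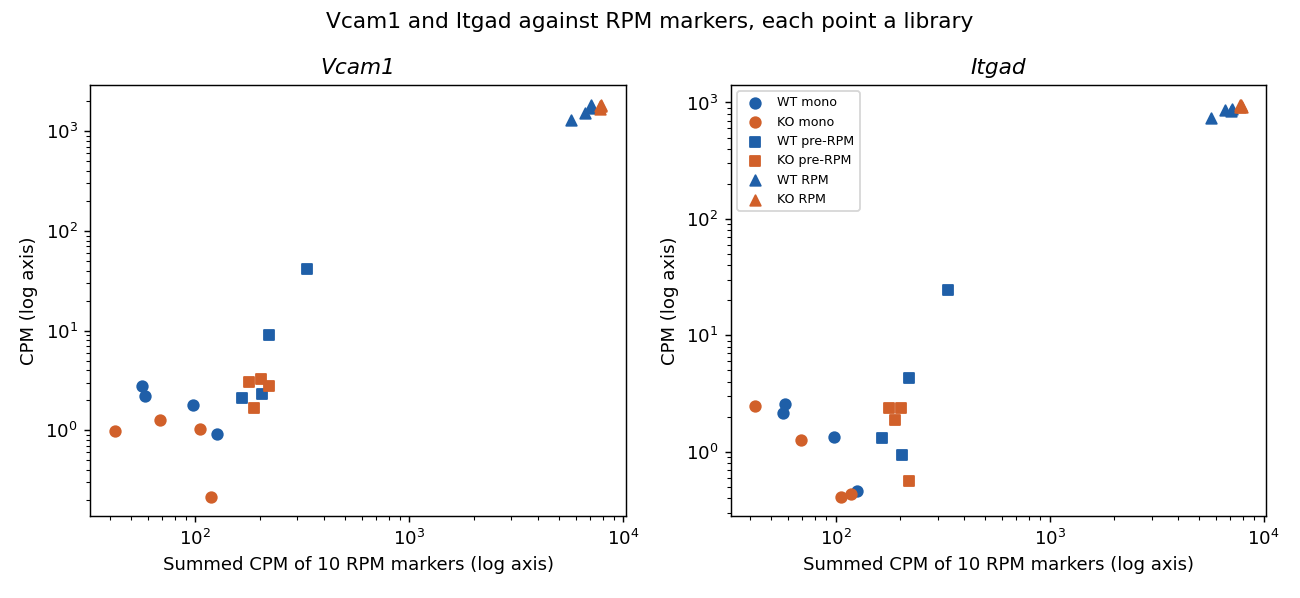
CPM of *Vcam1* and *Itgad* against the summed CPM of 10 RPM markers in the 24 libraries, all on log axes, WT in blue and libraries labelled Il1rl1-/- (KO) in orange, with a shape for each cell type. Within pre-RPMs, WT mouse 3 (41.9 CPM *Vcam1*, 24.3 CPM *Itgad*, 333 CPM markers) lies above the other 7 libraries, and the 8 RPM libraries lie apart at 5688 to 7900 CPM of markers.

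*Itgax*, which encodes CD11c, a chain prominent on dendritic cells, was the member that differed between genotypes. It was at 43.5, 57.0, 27.0, and 33.6 CPM in WT pre-RPMs and at 71.7, 89.4, 70.0, and 85.4 CPM in pre-RPMs labelled Il1rl1-/-. The groups did not overlap, and the log2 fold change was 0.98 (SE 0.17, adjusted p = 0.00966 by edgeR). It ranged from 0.83 to 1.19 when each library was left out, with adjusted p up to 0.0475. In monocytes, *Itgax* was at 78.7, 62.3, 48.6, and 49.3 CPM in WT and at 42.6, 44.1, 62.7, and 69.8 CPM under the Il1rl1-/- label. In RPMs, it was at 62.0, 62.3, 52.4, and 55.2 CPM in WT and at 68.6, 56.2, 57.9, and 61.1 CPM under the Il1rl1-/- label. Both pairs of groups overlapped, with log2 fold changes of −0.13 (95% interval −0.59 to 0.34) and 0.06 (95% interval −0.15 to 0.28).

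The change of *Itgax* between cell types had opposite signs by label, with values that did not all pass the test. From monocytes to pre-RPMs it was −0.57 (SE 0.23, adjusted p = 0.111 by edgeR) in WT and 0.54 (SE 0.16, adjusted p = 0.0388) under the Il1rl1-/- label, and from pre-RPMs to RPMs it was 0.48 (SE 0.18, adjusted p = 0.0420) and −0.44 (SE 0.11, adjusted p = 0.00265). None of these exceeded a log2 fold change of 1. The difference between labels, tested as an interaction, was 1.11 (SE 0.30, edgeR's adjusted p = 1) for the first step and −0.90 (SE 0.22, adjusted p = 0.183) for the second. For the second step, the adjusted p was 0.0472 with the mouse number as a block and 0.0183 by DESeq2, and 0.0160 when WT pre-RPM mouse 2 was left out. That block gave the same term to mice of the same number in both genotypes, which are different animals.

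Markers of other cells also differed between these pre-RPM libraries. The sum of 8 dendritic cell markers, *Itgax* not among them, was 65.8, 70.9, 42.4, and 41.4 CPM in WT and 94.8, 95.1, 64.9, and 88.7 CPM under the Il1rl1-/- label. Of the 6 dendritic cell markers tested, Dpp4 was called higher (log2 fold change 0.70, adjusted p = 0.0402 by edgeR), and none of the 8 was at 0 in every library of a group. NK cell markers summed to 68.6 to 142 CPM in WT and to 14.7 to 50.7 CPM under the Il1rl1-/- label. Of these, Ncr1, Prf1, and Gzma were called lower, at −2.04, −2.03, and −1.94. B cell markers summed to 54.6 to 78.7 CPM in WT and 23.2 to 50.03 CPM under the Il1rl1-/- label, with Ms4a1 (−1.40) and Pax5 (−1.25) called lower, and 7 basophil and mast cell markers to 13.1 to 57.4 and 5.95 to 8.48 CPM, with Gata2 (−3.01) called lower. The 10 monocyte markers summed to 2008 to 2498 CPM in WT and 2531 to 2805 CPM under the Il1rl1-/- label, and of these Ace was called higher (0.57, adjusted p = 0.0209 by edgeR). The part of these cells in *Itgax* was not tested. The authors counted these populations by flow cytometry among CD11c-low cells, and the sort as described above names no CD11c gate. The part of such a gate in *Itgax* was not tested either.

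Over pre-RPMs, 1 of 10 members tested was called between labels, where 0.552% of all genes were called at an adjusted p under 0.05. At an unadjusted p under 0.05 there were 4, namely *Itgax*, *Itgad*, *Itgb1*, and *Vcam1*, beside 8.8% of all genes tested. *Vcam1* and *Itgad* had log2 fold changes of −2.35 (SE 0.73, adjusted p = 0.266 by edgeR) and −2.11 (SE 0.79, adjusted p = 0.410), and without WT pre-RPM mouse 3 the value of *Vcam1* was −0.74. *Itgb1* was at 0.21 (95% interval 0.02 to 0.41). *Itgam*, *Itgal*, *Itgb2*, *Itga4*, and *Itgb7* lay between −0.12 and 0.17, and *Itga6* was at −0.70 (95% interval −1.47 to 0.08).

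In monocytes, edgeR called 0 of 8 members tested and DESeq2 called 0, with 0 at an unadjusted p under 0.05 (3.59% of all genes) and 0.0614% of all genes called (7, or 27 with the mouse number as a block). *Itgad* and *Vcam1* were left out there for low counts. The 8 log2 fold changes lay between −0.13 and 0.17, with the widest interval, −0.79 to 1.13, for *Itga6*. In RPMs, edgeR and DESeq2 called 0 of 9 members tested, with 2 at an unadjusted p under 0.05 (7.27% of all genes) and 0.233% of all genes called (26, or 81 with the block). *Itgam* was left out for low counts.

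For the members of high level in RPMs, the intervals between labels were narrow. The log2 fold change was 0.13 (95% interval −0.13 to 0.40) for *Vcam1*, 0.17 (95% interval −0.05 to 0.38) for *Itgad*, 0.01 (95% interval −0.20 to 0.23) for *Itgb2*, and −0.06 (95% interval −0.32 to 0.20) for *Itgb1*. *Itgad* was at 739 to 874 CPM in WT and at 912 to 960 CPM under the Il1rl1-/- label, which did not overlap, with an adjusted p of 0.769 by edgeR. *Itgal* and *Itgb7* had the values at an unadjusted p under 0.05, at −0.96 (SE 0.37, adjusted p = 0.619 by edgeR) and −1.05 (SE 0.39, adjusted p = 0.593). Their groups overlapped, and the higher WT values came from mice 1 and 2. Without WT RPM mouse 2, which had the highest NK and B cell marker sums of its group, the values were −0.48 for *Itgal* and −0.59 for *Itgb7*. *Itga4* was at −0.30 (SE 0.14, adjusted p = 0.708 by edgeR) and *Itga6* at −0.96 (SE 0.45, adjusted p = 0.690), and without the same library at −0.14 and −0.56.

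**Figure D5:**
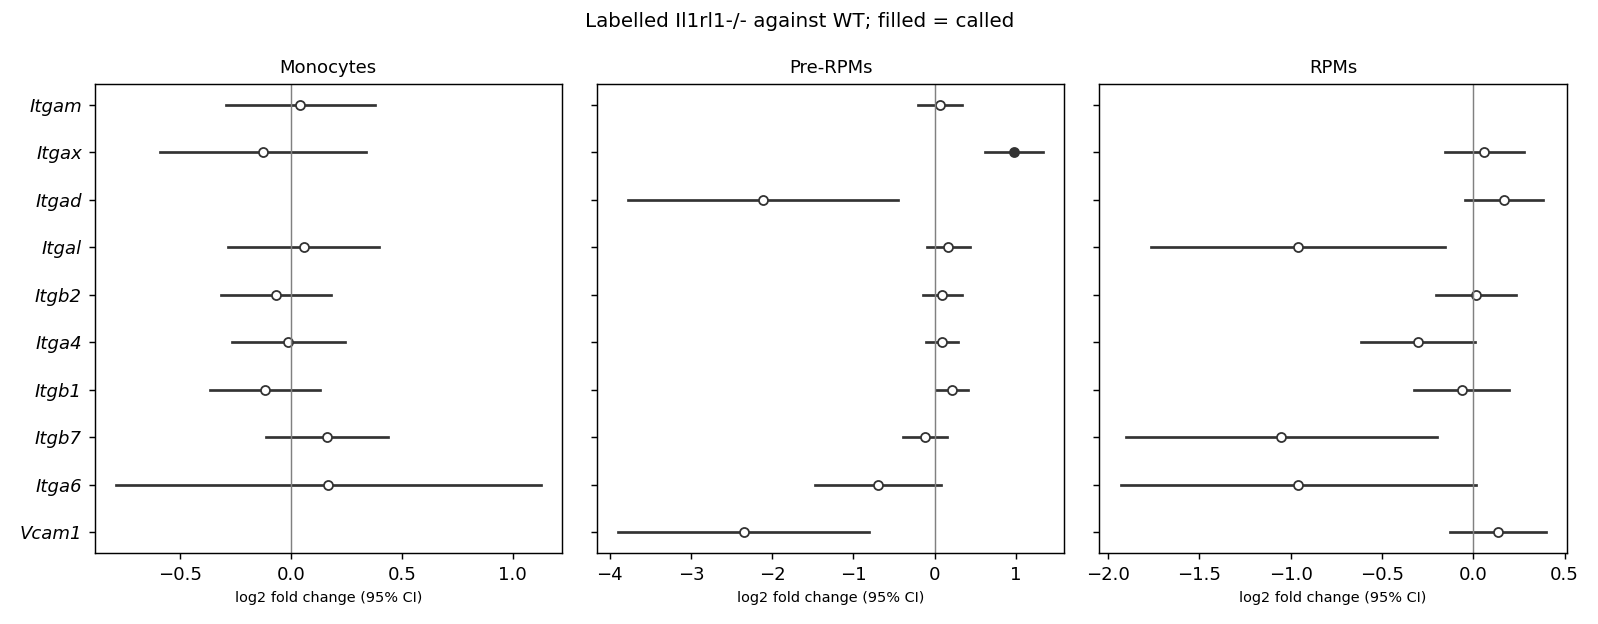
log2 fold changes of libraries labelled Il1rl1-/- against WT with 95% intervals, in monocytes, pre-RPMs, and RPMs, where the filled point passed an adjusted p under 0.05. *Itgax* in pre-RPMs, at 0.98, is the filled point, and genes without a point had too few counts to be tested.

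The differences of the changes between labels were called for 0 of 10 members in each of the 3 interactions by edgeR, beside 0%, 0.107%, and 0.0318% of all genes for monocytes to pre-RPMs, pre-RPMs to RPMs, and monocytes to RPMs. At an unadjusted p under 0.05 there were 2, 7, and 4 members, beside 3.8%, 7.52%, and 4.84% of all genes tested, and DESeq2 called 0, 1, and 0. DESeq2 gave no adjusted p for *Itgad* and *Itga6* in the second. For pre-RPMs to RPMs, *Vcam1* was at 2.49 (SE 0.78, adjusted p = 0.354) and *Itgad* at 2.29 (SE 0.80, adjusted p = 0.472), and without WT pre-RPM mouse 3 they were at 0.89 and 0.49. *Itgal* was at −1.11 (SE 0.39, adjusted p = 0.474) and *Itgb7* at −0.93 (SE 0.40, adjusted p = 0.600), all from edgeR's quasi-likelihood test. *Itgam* was at −1.04 and *Itga4* at −0.39 for this step, and *Itgb2*, *Itgb1*, and *Itga6* lay between −0.27 and −0.07.

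For monocytes to pre-RPMs, the difference between labels was 0.33 (SE 0.15) for *Itgb1*, with an adjusted p of 1 by edgeR, −1.52 (SE 1.32) for *Itgad*, −1.20 (SE 1.33) for *Vcam1*, and −0.87 (SE 0.63) for *Itga6*. *Itgam*, *Itgal*, *Itgb2*, *Itga4*, and *Itgb7* lay between −0.28 and 0.16. For monocytes to RPMs, *Vcam1* was at 1.30 (SE 0.41, adjusted p = 0.728 by edgeR), *Itgb7* at −1.20 (SE 0.43, adjusted p = 0.901), *Itgam* at −1.005, and *Itgal* at −0.99, which are the 4 members at an unadjusted p under 0.05. *Itga6* was at −1.11 (SE 0.68), *Itgad* at 0.78 (SE 0.50), and *Itgax*, *Itgb2*, *Itga4*, and *Itgb1* between −0.28 and 0.20.

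The patterns most like each member over the 24 libraries mostly followed the cell types, so the correlations describe that split and carry no test. *Vcam1* was most like C1qc (r = 0.995), Mertk (0.993), and *Itgad* (0.993), and *Itgad* was most like Sema6d (0.994), *Vcam1* (0.993), and C1qc (0.992). *Itgam* was most like Diaph1 (0.997), *Itgal* (0.995), and *Itga4* (0.994), and *Itgal* like Diaph1 (0.995), *Itgam* (0.995), and Vim (0.995). *Itga4* was most like *Itgam* (0.994), *Itgal* (0.994), and Atp8b4 (0.993), and *Itgb7* like Ahnak (0.995), Tpm4 (0.992), and *Itgal* (0.992). Lower values were found for *Itgb2* with Wdr1 (0.914), Uba1 (0.901), and Eif3c (0.890), for *Itgb1* with Polr2a (0.901), Dock11 (0.899), and Trim33 (0.893), and for *Itga6* with Ppp1r16b (0.909), Lat (0.900), and Ablim1 (0.899). *Itgax* had no close match, with Abcd4 (0.723), Sfxn5 (0.687), and Gprc5c (0.679). The libraries share their mice across cell types.

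Other integrin chains, ligands, and adaptors were counted in the same comparisons, where 24.7% of all genes in WT and 26% under the Il1rl1-/- label were called from pre-RPMs to RPMs. Of 10 other integrin chains tested in WT, 2 rose, *Itga9* (log2 fold change 5.29) and *Itgb5* (1.83), and 6 fell, led by *Itga8* (−3.99), *Itga5*, which pairs with beta1 to bind fibronectin (−3.10), and *Itga2* (−3.10). Of 13 ligands tested, 1 rose, F11r (3.13), and 6 fell, led by the fibronectin gene Fn1 (−6.73), Thbs1 (−4.13), and Emilin1 (−3.80). Of 33 adaptors and regulators tested, 4 rose, led by the tetraspanin Cd81 (5.24), the focal adhesion kinase Ptk2 (4.68), and Src (3.97), and 3 fell, Vcl, which encodes vinculin (−3.81), Lims1 (−1.96), and Rap1a (−1.34). The count for the adaptors was below the share of all genes. The medians were −1.17, −0.63, and −0.32. In the libraries labelled Il1rl1-/-, 2 of 8 other integrin chains rose, *Itga9* (5.70) and *Itgb5* (1.96), and 5 fell, led by *Itga8* (−6.19), *Itgb3* (−4.00), and *Itga5* (−3.50). Of 13 ligands, F11r (2.89) rose and 6 fell, led by Fn1 (−8.41), Emilin1 (−5.33), and Thbs1 (−4.61). Of 32 adaptors, 4 rose, led by Cd81 (5.18), Ptk2 (4.37), and Src (4.23), and 4 fell, led by Vcl (−4.83), Lims1 (−1.88), and Rap1a (−1.27), a count again below the share of all genes.

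From monocytes to RPMs, 23.9% of all genes were called in WT and 25.9% under the Il1rl1-/- label. In WT, 2 of 10 other integrin chains rose, *Itga9* (6.18) and *Itgb5* (3.06), and 4 fell, led by *Itga2* (−5.68), *Itga8* (−3.42), and *Itga5* (−2.86). Of 14 ligands, F11r (4.05) and Icam5 (1.11) rose and 7 fell, led by Fn1 (−5.87), Emilin1 (−3.01), and Lamb1 (−2.93), and of 33 adaptors 6 rose, led by Src (4.97), Cd81 (4.91), and Ptk2 (4.38), and 6 fell, led by Vcl (−3.69), Skap1 (−2.64), and Tspan32 (−2.17). In the libraries labelled Il1rl1-/-, 2 of 10 other integrin chains rose, *Itga9* (5.72) and *Itgb5* (3.24), and 5 fell, led by *Itga2* (−5.93), *Itga8* (−4.90), and *Itgb3* (−3.92). Of 13 ligands, F11r (4.07), Icam1 (1.13), and Icam5 (1.08) rose and 6 fell, led by Fn1 (−7.90), Emilin1 (−4.56), and Thbs1 (−3.54), and of 32 adaptors 5 rose, led by Cd81 (5.26), Src (5.12), and Ptk2 (3.86), and 5 fell, led by Vcl (−4.69), Skap1 (−2.80), and Tspan32 (−2.21). From monocytes to pre-RPMs, 3.57% of all genes were called in WT and 4.85% under the Il1rl1-/- label. In WT, *Itga2* (−2.60), the laminin gene Lamb1 (−3.47), Skap1 (−2.51), and Cd9 (−1.60) fell, of 10, 15, and 31 genes tested. With the Il1rl1-/- label, *Itgb5* (1.23) rose and *Itga2* (−3.79), Skap1 (−3.72), and Tspan32 (−2.68) fell, of 10, 13, and 31 tested. The adaptors called, 2 of 31 in each, were near the shares of all genes. NK cell markers summed to 575 to 1896 CPM in WT monocytes and to 68.6 to 142 CPM in WT pre-RPMs. Under the Il1rl1-/- label, they summed to 504 to 1569 CPM and to 14.7 to 50.7 CPM. Their part in *Itga2*, Skap1, and Tspan32 was not tested in any comparison of cell types. Between labels in pre-RPMs, *Itga2* (−1.45) and Tspan32 (−1.43) were called lower, of 10 other integrin chains, 12 ligands, and 31 adaptors tested. The share of all genes called there was 0.552%. NK cell markers were also lower under the Il1rl1-/- label in pre-RPMs, and their part in both genes was not tested.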

How the data were processed

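RNA-seq was measured in 24 libraries of sorted splenic cells, 4 mice in each of 6 groups taken from the labels. The authors removed adapters with cutadapt and used STAR 2.5.1 for alignment, then featureCounts 1.6.2 for stranded counting over exons of the Ensembl annotation of GRCm38. The authors deposited raw counts of read pairs for each gene, without normalization or filtering. Read pairs that fall on exons of more than 1 gene were not assigned. Total counts and their floor limit the precision of low genes. No pair among 36 pairs of replicates held identical counts, and their chi-square over its degrees of freedom was at least 3.85.

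Comparisons used edgeR 4.0.16 with limma 3.58.1 in R 4.3.3. Genes were kept by filterByExpr, scaled by TMM, and tested by the quasi-likelihood F test, and p-values were adjusted by Benjamini-Hochberg over every gene kept. SEs were derived from the F statistic. Calls between cell types needed an adjusted p below 0.01 with a log2 fold change beyond 1 in size, and those between genotypes and interactions an adjusted p below 0.05. CPM used TMM factors over 24 libraries, and log2 CPM for the likeness of patterns used a prior count of 2, with the 3 genes of highest Pearson r named for each member among genes with a mean log2 CPM of at least 1. The members tested are named in every comparison, single or within a range, and from the lists of other integrins, ligands, and adaptors up to 3 rises and 3 falls between cell types and every call between genotypes. Tables were made in Python 3.11.15 with NumPy 2.4.6 and pandas 2.3.3, and figures with matplotlib 3.10.9. On simulated data of 11239 genes for WT pre-RPMs to WT RPMs, with 200 changed, edgeR recovered 71 of 100 genes changed 2-fold and 94 of 100 changed 4-fold, with 5.17% false calls. These counts used an adjusted p below 0.05 without a fold threshold. They therefore do not give the recovery or the false calls under the stricter rule between cell types.

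The labels give the mouse, so libraries of the same number within a genotype come from the same animal and are paired between cell types. Correlations across genes of their deviations from the group means ranged from −0.04 to 0.31. Between genotypes, the same number marks different animals that share an index, and every such correlation was over 0.1 in monocytes (0.118 to 0.452) and RPMs (0.149 to 0.182) but not in pre-RPMs (0.045 to 0.155). The number was not used in the values given first. Alternatives were RLE size factors, library totals without Gm42418 and without TMM, DESeq2 1.42.0, every gene with at least 1 count, all 24 libraries in a single fit, the block, and the omission of single libraries. The members and lists were chosen with earlier results of these data known. Chromatin accessibility was not analysed here.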

Additional observations from a re-analysis of the deposited data

Results flagged for a closer look

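Of 60 groups of 4 libraries tested for a library far from the other 3 (10 members in 6 groups), 5 were flagged by a gap larger than Dixon's 95% limit, where chance flags about 1 in 20. *Itgad* was at 24.3 CPM in the pre-RPM library of WT mouse 3 and at 0.930 to 4.29 CPM in the other 3, and that library also had the highest RPM and erythroid marker sums of its group. *Itgam* was at 4.27 CPM in WT RPM mouse 2 against 1.34 to 1.69 CPM in the others, and this library had the highest NK and B cell marker sums of its group. *Itgam* was at 58.3 CPM in WT monocyte mouse 2 against 77.0 to 80.8 CPM, and *Itga4* at 529 CPM in the same library against 591 to 593 CPM, where the NK cell marker sum, 1896 CPM, was the highest of its group. *Itga6* was at 3.81 CPM in RPM mouse 1 labelled Il1rl1-/- against 1.92 to 2.19 CPM. The part of the markers in these values was not tested.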

How the results depend on the processing

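Over 115 log2 fold changes of members and all alternatives, 1752 of 1845 values kept their direction and their side of the threshold, 25 passed it where the first value did not, 3 no longer passed it, and 65 changed sign. The 3 were all *Itga6* from monocytes to RPMs in the libraries labelled Il1rl1-/- (KO below), each with an RPM library left out. DESeq2 gave no adjusted p for *Itgad* from WT pre-RPMs to RPMs, where it called 5 members and edgeR 6, nor for *Itgad* and *Itga6* in the genotype difference of that step, and these are not counted among the 3. Library totals without TMM shifted the median of all genes by −0.264 for WT monocytes to pre-RPMs, 0.111 for WT pre-RPMs to RPMs, −0.181 for WT monocytes to RPMs, and −0.124 for KO against WT monocytes. The shift was 0.21 for the genotype difference of monocytes to pre-RPMs and 0.181 for that of monocytes to RPMs. No called member changed sign. The cause of the changes below was not tested, and low counts limit *Itga6*, *Itgad*, and *Vcam1* outside RPMs.

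Members called moved from 0 to 3 with every gene with at least 1 count and to 1 in a single fit of 24 libraries for WT monocytes to pre-RPMs. They moved from 0 to 1 for KO monocytes to pre-RPMs by DESeq2, with every gene, in the single fit, and with the block. With every gene, they were 3 for KO against WT pre-RPMs, 2 for RPMs, and 1, 5, and 2 for the genotype differences of the steps from monocytes to pre-RPMs, pre-RPMs to RPMs, and monocytes to RPMs. DESeq2 and the block gave 1 for pre-RPMs to RPMs.

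Genes called from WT monocytes to pre-RPMs were 396, and 685 with library totals, 660 by DESeq2, 1094 with every gene, and 772 in the single fit. For KO they were 543, and 1060 with every gene. For KO against WT monocytes, 7 became 22 by DESeq2, 139 with every gene, and 16 in the single fit. For pre-RPMs, 59 became 265 with every gene and 17 in the single fit. For RPMs, 26 became 48 by DESeq2 and 272 with every gene. For the genotype differences, 0 became 78 with every gene for monocytes to pre-RPMs, 13 became 41 by DESeq2, 224 with every gene, and 3 in the single fit for pre-RPMs to RPMs, and 4 became 2 with library totals, 37 by DESeq2, and 165 with every gene for monocytes to RPMs. Of the calls between KO and WT RPMs, 65.4% were higher in KO, and 50%, 22.4%, 46.2%, and 33.3% by DESeq2, with every gene, in the single fit, and with the block. In pre-RPMs, 30.5% of the calls were higher, and 43.4% with library totals and 58.8% of the 17 in the single fit. In monocytes, 71.4% were higher, and 56.2% in the single fit. From WT monocytes to pre-RPMs, 8.84% were higher, and 22.7%, 27.9%, and 28.5% by DESeq2, with every gene, and in the single fit. For the genotype differences, the share was 61.5% for pre-RPMs to RPMs, and 50%, 36.6%, 34.8%, and 37.5% with library totals, by DESeq2, with every gene, and with the block, and 50% for monocytes to RPMs, and 100%, 16.2%, 7.88%, 75%, and 15.4% with library totals, by DESeq2, with every gene, in the single fit, and with the block.

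With the mouse number as a block, genes called were 27, 145, and 81 for KO against WT monocytes, pre-RPMs, and RPMs, and 24 and 13 for the genotype differences of pre-RPMs to RPMs and monocytes to RPMs. Between genotypes the numbers mark different animals, and in pre-RPMs the correlations of libraries of the same number were 0.045 to 0.155, not all over 0.1. Beyond *Itga6* and *Itgax*, the block changed no call of a member.

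With each library left out, members called ranged from 0 to 1 for WT and KO monocytes to pre-RPMs (1 is *Itga6*, without monocyte mouse 3) and for the genotype difference of pre-RPMs to RPMs (1 is *Itgax*, without WT pre-RPM mouse 2). Genes called ranged from 169 to 1041 for WT monocytes to pre-RPMs (lowest without WT pre-RPM mouse 4, highest without WT monocyte mouse 3), 336 to 813 for KO (without KO monocyte mice 2 and 3), 1 to 8 for KO against WT monocytes (without KO mice 2 and 3), 37 to 68 for pre-RPMs (without WT mice 1 and 3), and 2 to 10 for the genotype difference of monocytes to RPMs (without WT monocyte mouse 3 and KO monocyte mouse 4).

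Sign changes were found in values that were not called. With RLE size factors and DESeq2, *Itgb7* was at 0.0022 for WT monocytes to pre-RPMs. With library totals, *Itgam* and *Itgal* were at −0.0488 and −0.0584 for KO monocytes to pre-RPMs and at −0.0887 and −0.0548 for KO against WT monocytes, and *Itgb1* was at 0.0091 for KO against WT RPMs. With every gene, *Itgal* was at −0.0014 for KO monocytes to pre-RPMs. Ranges over left-out libraries that crossed 0 were, for WT monocytes to WT pre-RPMs, −0.12 to 0.0713 for *Itgam*, −0.0504 to 0.0134 for *Itga4*, and −0.11 to 0.0869 for *Itgb7*. For WT pre-RPMs to WT RPMs, −0.11 to 0.58 for *Itga6*. For WT monocytes to WT RPMs, −0.15 to 0.10 for *Itgax*. For KO monocytes to KO pre-RPMs, −0.0685 to 0.0919 for *Itgam*, and −0.0630 to 0.0842 for *Itgal*. For KO pre-RPMs to KO RPMs, −0.25 to 0.31 for *Itga6*. For KO against WT monocytes, −0.27 to 0.0277 for *Itgax*, −0.0432 to 0.16 for *Itgal*, −0.0539 to 0.12 for *Itgam*, −0.0626 to 0.0382 for *Itga4*, and −0.18 to 0.45 for *Itga6*. For KO against WT pre-RPMs, −0.0132 to 0.18 for *Itgam*. For KO against WT RPMs, −0.0277 to 0.0671 for *Itgb2*, and −0.16 to 0.0106 for *Itgb1*. For the genotype difference of the step from monocytes to pre-RPMs, −0.0526 to 0.14 for *Itgam*, −1.90 to 0.28 for *Itgad*, and −1.56 to 0.41 for *Vcam1*. For that of the step from pre-RPMs to RPMs, −0.13 to 0.0155 for *Itgb2*, and −0.54 to 0.14 for *Itga6*. For that of the step from monocytes to RPMs, −0.0281 to 0.14 for *Itgb1*. The sign of *Itgad* and *Vcam1* in the genotype difference of monocytes to pre-RPMs turned without WT pre-RPM mouse 3.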
